A study of Arabidopsis thaliana with 12 samples.

Results

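Roots of wild-type Arabidopsis thaliana seedlings given 5 µM BiAux together with 10 nM IAA were compared with roots given 10 nM IAA alone. BiAux is a synthetic compound that joins a pair of auxin units to a sugar, and IAA is the natural auxin of plants. All seedlings grew for 4 d on Murashige and Skoog medium and were then treated for 3 d, so both groups carried IAA and differed in BiAux. The comparison rests on 6 libraries of the 12 analysed here, 3 per group, chosen by the names of the table's columns, which repeat the sample titles. The other 6 libraries, 3 of mock-treated and 3 of BiAux-treated roots without IAA, served as a second setting of the same addition. The comparison of the first 6 libraries asks what BiAux changed in roots given IAA at the same time.

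The labels of these samples contradict each other, and every direction below rests on the titles. In 7 of the 12 libraries the treatment field names another treatment than the title, and for all 6 libraries compared here that field names BiAux plus IAA, which goes against the title in 3 of them. In addition, the fold changes that the study lists for BiAux against mock lie closer to those of the libraries titled IAA than to those of the libraries titled BiAux, so "IAA" and "BiAux plus IAA" stand here for the libraries titled that way. Were the titles of the BiAux and the IAA libraries exchanged, the comparison would show the addition of IAA to BiAux. GH3.3, a gene induced by auxin, was at 246, 277 and 378 in the libraries titled IAA, 58, 105 and 116 in those titled BiAux and 121, 165 and 205 in mock. The auxin-induced repressor gene IAA1, by contrast, was lower in every library titled IAA than in every mock library. The mean log2 level of the auxin conjugation, oxidation and synthesis list, which holds GH3.3, was below that of the libraries titled IAA. It was lower by values of -0.30, -0.28 and -0.15 in mock and -0.38, -0.27 and -0.26 in BiAux. For the Aux/IAA repressor list, which holds IAA1, the values were -0.10, -0.16 and 0.03 in mock and -0.25, -0.13 and -0.15 in BiAux. These values do not settle which titles are right, which was not tested. The deposited values had been scaled to similar totals, from 32465723 to 32709187 normalized counts in the 6 libraries. The depth of each library is therefore unknown, and the study's methods give only a general figure per library. All 10 root tissue markers were measured and together took 1.16% to 1.70% of the counts, whereas the 17 measured nuclear photosynthesis genes, which mark green tissue, took 0.019% to 0.0254%. Neither share separated the groups. No source says that replicates came from separate cultures, so p-values measure the spread between these libraries, which may be technical, and in whole roots fewer cells of a type cannot be told apart from less RNA per cell.

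As background, auxin is perceived by the F-box proteins TIR1 and AFB, which mark Aux/IAA repressors for destruction and so free the ARF transcription factors to act on their targets, among them the Aux/IAA and GH3 genes themselves. Roots also adjust transcription to mineral supply. When phosphate is scarce, the transcription factor PHR1 binds a short DNA element named P1BS and activates genes for phosphate uptake, phosphate recycling and the replacement of phospholipids, while SPX proteins hold PHR1 back when phosphate is plentiful.

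Adding BiAux to IAA changed a small part of the transcriptome. Of 19338 genes tested, 158 rose and 207 fell (limma, adjusted p under 0.05 and a log2 fold change beyond 0.5 in size, the rule meant by called below). These are 0.817% and 1.07% of the genes tested. In all 365 called genes the 3 libraries of each group lay apart, which was also true of 24.8% of all genes tested. At an unadjusted p under 0.05 with the same fold limit, 292 genes were higher and 365 were lower, or 1.51% and 1.89% of those tested. The median log2 fold change of all genes tested was -0.01. Rises reached farther than falls, with 46 of the called rises above a log2 fold change of 1 and 27 of the called falls below -1. The 8 rises above 2 were PEPC1, HAK5, SPX3, IPS1, AT3G25240, ACA1, PPsPase1 and AT2G01422, and the single fall below -2 was AT1G36240. BiAux plus IAA replicate 2 was the highest of its group in 128 of the 158 called rises, or 81%, against 41.4% of all genes tested. Without that library 147 genes rose and 254 fell, but the counts dropped to 53 and 74 without IAA replicate 2, to 66 and 108 without IAA replicate 1, and to 61 and 83 without BiAux plus IAA replicate 3.

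**Figure D1:**
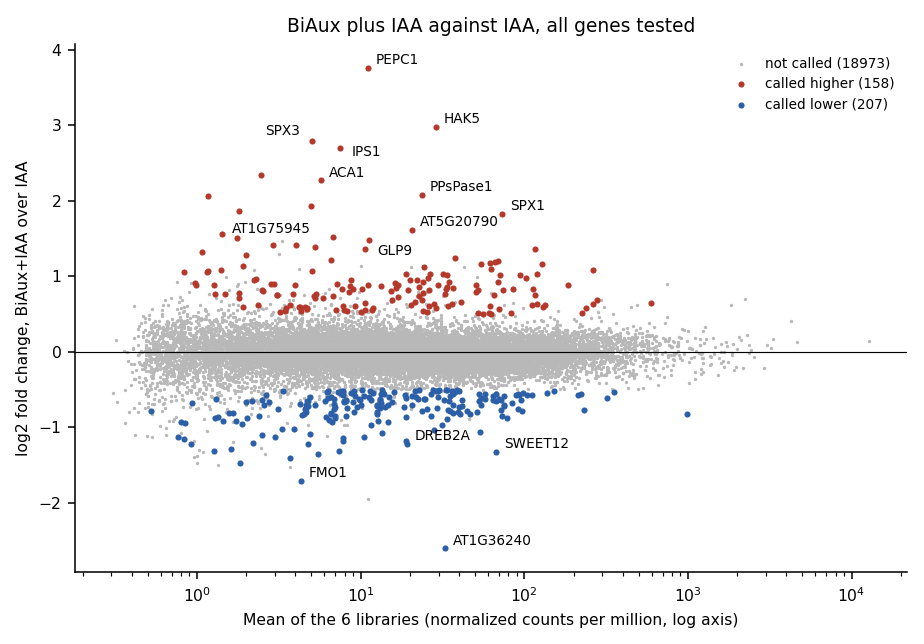
The log2 fold change of BiAux plus IAA over IAA is plotted against the mean of the 6 libraries in normalized CPM (counts scaled to a fixed library total) on a log axis, 1 point per gene for 19338 genes. Red points are the 158 called rises, blue points the 207 called falls, and the named points lie at the ends of the scale, from PEPC1 at 3.76 to AT1G36240 at -2.60.

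Phosphate starvation genes were well represented among the rises. Of 31 measured genes of the phosphate starvation list, 18 rose and none fell, with a median log2 fold change of 0.82 against -0.01 over all genes tested. At the unadjusted threshold 19 were higher and none was lower. In 25 of the 31 the BiAux plus IAA libraries all lay above the IAA libraries, where 24.8% of all genes tested lay apart in either direction. In what follows, values are normalized counts in replicates 1, 2 and 3, and log2 fold changes are on the scale of the count plus 16.3, with n = 3 libraries per group.

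The largest rises of the list belonged to PEPC1, SPX3 and IPS1. PEPC1, a phosphatase that releases phosphate from phosphoethanolamine and phosphocholine, stood at 19, 24 and 31 in the IAA libraries and at 245, 1403 and 436 in the BiAux plus IAA libraries, a log2 fold change of 3.76 ± 0.45 (SE, limma adjusted p = 0.0033). Its highest IAA value was far below its lowest value with BiAux, although the 3 BiAux plus IAA libraries themselves spread widely. SPX3, a phosphate-dependent repressor of PHR1, went from 18, 19 and 32 to 131, 583 and 207, a log2 fold change of 2.80 ± 0.39 (SE, limma adjusted p = 0.0058). SPX1, its close relative, went from 1093, 1018 and 796 to 2141, 6186 and 3060 and changed by 1.82 ± 0.29 on the log2 scale (SE, limma adjusted p = 0.0098). In each of these genes replicate 2 was the highest of the BiAux plus IAA libraries and no value overlapped with IAA. IPS1, a non-coding RNA that sequesters the microRNA of the phosphate pathway, stood at 43, 43 and 53 with IAA and at 208, 731 and 382 with BiAux plus IAA, a log2 fold change of 2.70 ± 0.32 (SE, limma adjusted p = 0.0032). AT4, a related non-coding RNA, rose by 1.09 ± 0.21 (SE, log2 scale) from much higher levels, 5872, 5544 and 4572 against 7754, 16566 and 11236. The pyrophosphatase gene PPsPase1 went from 248, 237 and 296 to 640, 2128 and 1105, a log2 fold change of 2.08 ± 0.31 (SE, limma adjusted p = 0.0076). By contrast, PHR1 itself was not called at a log2 fold change of -0.14, nor were SPX4 at -0.05, SPX2 at 0.28 and PHO2, which encodes an enzyme that limits phosphate transporters, at 0.25.

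**Figure D2:**
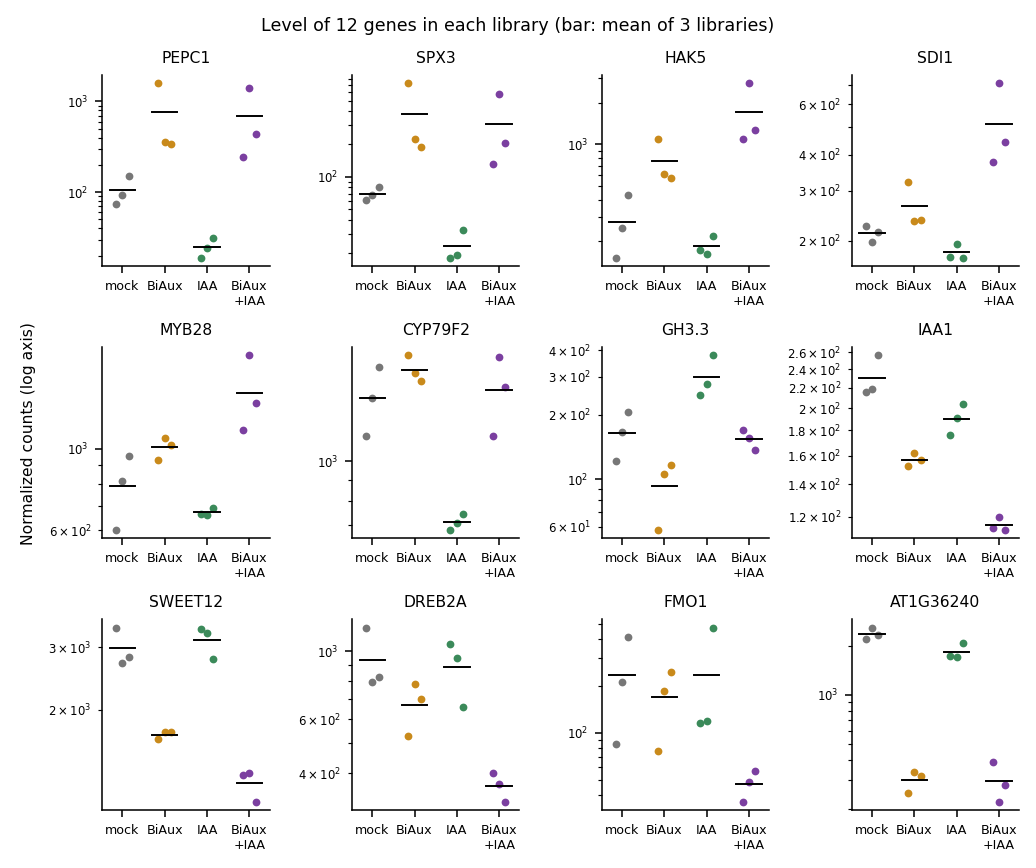
Each panel gives 1 gene, with normalized counts on a log axis for the 3 libraries of mock, BiAux, IAA and BiAux plus IAA, replicates 1 to 3 from left to right, and a bar at the mean of the 3. In PEPC1, SPX3 and HAK5 the IAA and BiAux plus IAA libraries are farthest apart upward, and in AT1G36240 all BiAux libraries, with and without IAA, lie at 221 to 388 while all others lie at 1709 to 2597.

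Uptake and recycling genes of the list rose too. Among the high-affinity phosphate transporters, PHT1;4 went from 2657, 2713 and 2423 to 3533, 6543 and 4344, a log2 fold change of 0.84 ± 0.17 (SE, limma adjusted p = 0.025). PHT1;8 rose by 1.41, PHT1;5 by 1.32 and PHT1;2 by 0.76 on the log2 scale, whereas PHT1;1 at 0.24 and PHT1;9 at 0.16 were not called. PHT1;2 has near-identical neighbours in its family, so its reads may not be separable from theirs. PHO1, which loads phosphate into the xylem, had a log2 fold change of -0.19 and was not called. Lipid remodelling, in which membranes exchange phospholipids for galactolipids and sulfolipids, was represented by rises of MGD3 (1.93), MGD2 (0.83), SQD1 (0.89), SQD2 (0.82), NPC4 (0.86) and GDPD1 (1.16), all as log2 fold changes. MGD3 stood at 49, 63 and 38 with IAA and at 113, 486 and 221 with BiAux plus IAA. Of the acid phosphatases, PAP17 rose by 0.80, but PAP10 at 0.20 and PAP12 at 0.32 were not called. Within the BiAux plus IAA group, replicate 2 was highest and replicate 1 lowest in PAP17, MGD3, SQD2 and PHT1;4 alike. The mean log2 level of the list, set against the IAA libraries, was 0.55, 1.49 and 0.89 in BiAux plus IAA and 0.38, 0.33 and 0.52 in mock, so the IAA libraries were the lowest of all. Without BiAux plus IAA replicate 2, 17 of the 31 list members were called and the list median fell to 0.54. The count was 7 without each of the 3 IAA libraries in turn, 6 without BiAux plus IAA replicate 3, and 8 in a fit over all 12 libraries.

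**Figure D3:**
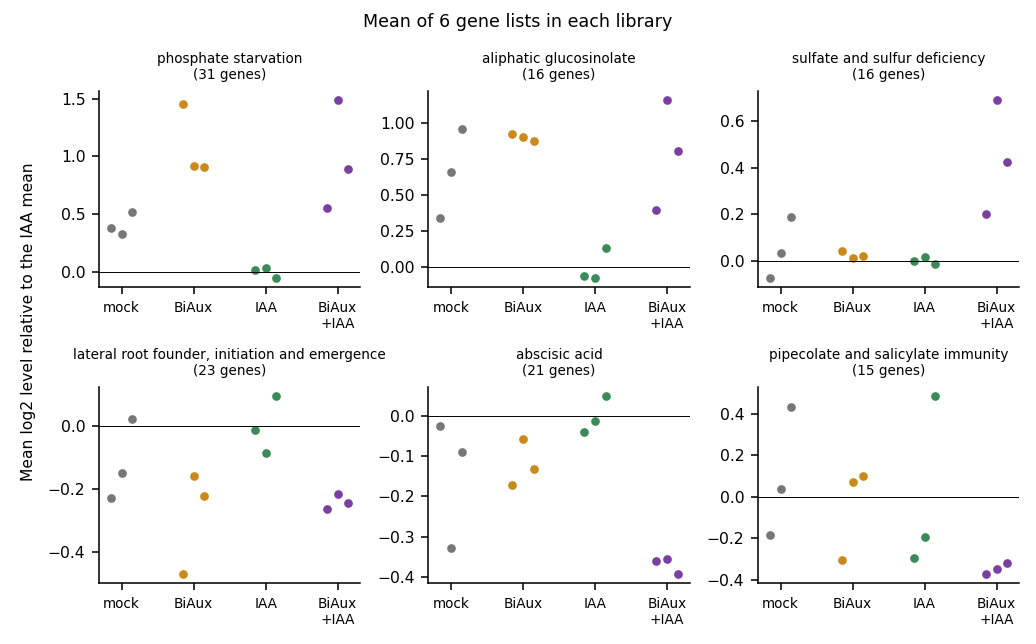
For 6 gene lists, the mean log2 level of the measured members is given in each of the 12 libraries relative to the mean of the IAA libraries, replicates 1 to 3 from left to right. The phosphate and aliphatic glucosinolate lists lie above 0 in every BiAux plus IAA library, and the abscisic acid list lies lowest there, between -0.39 and -0.35. The mock libraries also lie above IAA, by 0.33 to 0.52 for the phosphate list and by 0.34 to 0.96 for the aliphatic glucosinolate list, where they overlap with BiAux plus IAA.

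The sequence upstream of these genes was read for the P1BS element, written GNATATNC, on both strands of a window from 250 bases before to 50 bases after each gene's start in the RefSeq annotation of TAIR10.1. A match was present in 10 of the 18 called phosphate genes, or 55.6%, and in 41.9% of all 31 measured list members, against 6.25% of the 19267 genes tested that had a window. Of the 140 called rises outside the list, 15 held a match, or 10.7%, and of the 207 called falls 13 did, or 6.28%. The 250 bases upstream of 5 strongly changed genes follow, 5′ to 3′ on the strand of the gene, with P1BS matches in capitals. SPX3 (chr2:18606160-18606409, plus strand) and GDPD1 (chr3:350011-350260, minus strand) are shown because each has 2 matches, PPsPase1 (chr1:27466349-27466598, minus strand) and the potassium transporter gene HAK5 (chr4:7802252-7802501, minus strand) because each has 1, and PEPC1 (chr1:6092028-6092277, minus strand) because the largest rise had none in its window.
SPX3: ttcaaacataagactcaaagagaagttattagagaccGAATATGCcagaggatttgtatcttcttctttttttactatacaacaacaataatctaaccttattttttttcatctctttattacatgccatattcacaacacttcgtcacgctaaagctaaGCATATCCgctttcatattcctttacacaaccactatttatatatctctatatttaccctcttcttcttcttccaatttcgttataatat
GDPD1: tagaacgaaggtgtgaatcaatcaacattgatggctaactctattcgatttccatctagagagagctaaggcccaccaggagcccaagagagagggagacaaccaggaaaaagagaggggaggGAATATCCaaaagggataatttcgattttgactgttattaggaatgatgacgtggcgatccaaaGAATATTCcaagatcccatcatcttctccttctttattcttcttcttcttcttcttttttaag
PPsPase1: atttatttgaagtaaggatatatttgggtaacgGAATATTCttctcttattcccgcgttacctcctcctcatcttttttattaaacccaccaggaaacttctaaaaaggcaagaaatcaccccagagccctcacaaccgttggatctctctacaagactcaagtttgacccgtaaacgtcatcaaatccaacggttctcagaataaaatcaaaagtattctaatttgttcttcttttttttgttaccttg
HAK5: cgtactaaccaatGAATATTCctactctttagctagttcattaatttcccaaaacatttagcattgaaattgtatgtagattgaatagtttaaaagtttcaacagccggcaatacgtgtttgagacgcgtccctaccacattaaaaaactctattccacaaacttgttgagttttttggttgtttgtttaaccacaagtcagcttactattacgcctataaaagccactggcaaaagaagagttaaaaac
PEPC1: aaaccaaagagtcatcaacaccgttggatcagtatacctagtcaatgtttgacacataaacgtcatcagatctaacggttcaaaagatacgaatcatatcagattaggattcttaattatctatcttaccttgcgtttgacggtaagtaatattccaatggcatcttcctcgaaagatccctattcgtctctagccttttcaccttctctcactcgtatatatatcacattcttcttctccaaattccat
The matches of GDPD1, PPsPase1 and HAK5 include the palindromic form GAATATTC, while those of SPX3 are GAATATGC and GCATATCC. No match was found for IPS1, MGD3, PHT1;5 or PHT1;8 in the same window. The evening element, AAAATATCT, a target of clock proteins, was found in 14 of the 207 called falls (6.76%), 2 of the 158 called rises (1.27%) and 2.95% of all genes with a window. A match is a stretch of letters and was not tested as a binding site.

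HAK5, the high-affinity potassium transporter that roots induce under low potassium, was the second largest rise. It stood at 173, 163 and 219 with IAA and at 1102, 2750 and 1265 with BiAux plus IAA, a log2 fold change of 2.99 ± 0.27 (SE, limma adjusted p = 0.00079). The other 15 measured genes of the potassium list did not follow it. Only SKOR, the outward channel that releases potassium into the xylem, was called, and it fell from 1253, 1268 and 1055 to 849, 543 and 745, a log2 fold change of -0.75 ± 0.14 (SE, limma adjusted p = 0.017). The inward channel AKT1 had a log2 fold change of -0.29 and was not called, and the list median was -0.07. SKOR was not called without IAA replicate 1, IAA replicate 2 or BiAux plus IAA replicate 3 (limma adjusted p from 0.066 to 0.087).

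Some genes of sulfur nutrition rose as well. Of 16 measured sulfate and sulfur deficiency genes, 4 rose and none fell, 7 being higher and none lower at the unadjusted threshold, with a list median of 0.26. SDI1, which restrains glucosinolate synthesis under sulfur deficiency, went from 176, 196 and 175 to 379, 711 and 445, a log2 fold change of 1.36 ± 0.18 (SE, limma adjusted p = 0.0049). The low-affinity sulfate transporter gene SULTR2;1 went from 475, 420 and 546 to 708, 1221 and 949, and LSU2, a classic marker of low sulfur, from 454, 424 and 414 to 643, 1168 and 799, both with a log2 fold change of 0.95. SULTR4;2, which empties sulfate from the vacuole, rose by 0.53. The main root uptake carriers SULTR1;1 and SULTR1;2, at 0.29 and 0.06, were not called. The number of sulfur genes called was 1 without IAA replicate 2 or without BiAux plus IAA replicate 3, 7 without BiAux plus IAA replicate 1, and 2 in a fit over all 12 libraries.

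Of 16 measured aliphatic glucosinolate genes, 10 rose and none fell, 12 being higher and none lower at the unadjusted threshold, with a list median of 0.90. MYB28, the transcription factor that activates the pathway, went from 663, 660 and 691 to 1126, 1791 and 1329, a log2 fold change of 1.03 ± 0.13 (SE, limma adjusted p = 0.0042). The IAA libraries were nearly equal, and the lowest BiAux plus IAA library lay well above them. CYP79F2, which starts core synthesis from chain-elongated methionine, went from 683, 708 and 746 to 1154, 1791 and 1514, a log2 fold change of 1.02 ± 0.13 (SE, limma adjusted p = 0.0038). It has a near-identical neighbour, CYP79F1, with which reads may be shared. CYP83A1, the next enzyme, rose by 1.03. Of the chain elongation enzymes, IMD1 rose by 1.02, IPMI1 by 0.98, IPMI2 by 1.03, MAM1 by 0.88 and MAM3 by 0.83, and BASS5, which carries the intermediates across the chloroplast envelope, rose by 0.92. BCAT4, the entry enzyme, had a log2 fold change of 1.12 but missed the threshold (limma adjusted p = 0.053). In the mock libraries, MYB28 ranged from 602 to 955, below every BiAux plus IAA library, but CYP79F2 ranged from 1152 to 1696 and overlapped with them. Without BiAux plus IAA replicate 3 only 4 of the genes were called, 6 without IAA replicate 1 or IAA replicate 2, and 6 in a fit over all 12 libraries. In the indolic branch, which uses tryptophan, none of 13 measured genes was called at either threshold (limma), and the list median was 0.15.

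Among the auxin genes, the called members fell. Of 14 measured genes of auxin conjugation, oxidation and synthesis, 4 fell and none rose (4 lower and 1 higher at the unadjusted threshold), and all 4 were GH3 genes, whose enzymes join auxin to amino acids and which are themselves induced by auxin. GH3.3 stood at 246, 277 and 378 with IAA and at 170, 156 and 136 with BiAux plus IAA, a log2 fold change of -0.88 ± 0.15 (SE, limma adjusted p = 0.012). Its mock values of 121, 165 and 205 overlapped with those of BiAux plus IAA. GH3.2 went from 1502, 1743 and 1829 to 1179, 897 and 793, a log2 fold change of -0.83 ± 0.13 (SE, limma adjusted p = 0.0089). GH3.5 went from 1792, 1768 and 1945 to 1060, 1093 and 1029, a log2 fold change of -0.78 ± 0.07 (SE, limma adjusted p = 0.00062), and was the most even of the group within each treatment. GH3.1 fell by 0.76 on the log2 scale. In a fit over all 12 libraries 2 of these genes were called, GH3.3 (limma adjusted p = 0.0996) and GH3.1 (0.055) no longer passing.

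The Aux/IAA repressor genes gave 2 falls among 22 measured, with a list median of -0.14 and negative values in 18 of the 22. IAA1 stood at 176, 191 and 204 with IAA and at 114, 120 and 113 with BiAux plus IAA, a log2 fold change of -0.65 ± 0.11 (SE, limma adjusted p = 0.012). IAA2 went from 1511, 1553 and 1432 to 1023, 1110 and 1007, a log2 fold change of -0.51 ± 0.07 (SE, limma adjusted p = 0.0049). IAA1 and IAA2 were lower in every BiAux-treated library than in every mock library too, with IAA1 at 152, 162 and 157 against 216, 219 and 256. Neither was called without IAA replicate 2 or without BiAux plus IAA replicate 3, IAA1 missing the adjusted threshold and IAA2 the fold limit. Besides IAA1, none of the repressors whose binding to TIR1 the study tested was called. Transcript levels do not measure that binding or the stability of these repressors. Their log2 fold changes were -0.25 for IAA3, -0.21 for IAA7, -0.14 for IAA14, -0.24 for IAA18 and -0.02 for IAA28. Upstream of them, none of the 10 measured genes of the receptor complex and none of the 15 measured ARF genes was called at either threshold (limma). TIR1 stood at 3356, 3010 and 3642 with IAA and at 3164, 3222 and 3204 with BiAux plus IAA, a log2 fold change of -0.06 ± 0.07 (SE), and AFB2 had one of 0.06 ± 0.07 (SE). AFB1 and AFB3 lay at 0.07 and -0.07, ARF7 at -0.18 and ARF19 at -0.12. Of 17 measured auxin transport genes none was called (limma), and PIN5, at a log2 fold change of 0.60, was higher at the unadjusted threshold.

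Genes of lateral root formation were lower where they were called. Of 23 measured, 3 fell and none rose, and the list median was -0.26. The groups lay apart downward in 8 and upward in none, where 24.8% of all genes tested lay apart in either direction. LBD29, a transcription factor directly downstream of ARF7 and ARF19, stood at 197, 201 and 193 with IAA and at 127, 122 and 126 with BiAux plus IAA, a log2 fold change of -0.59 ± 0.10 (SE, limma adjusted p = 0.012). Its mock values were 145, 113 and 154, so the BiAux plus IAA libraries lay within the mock range. PUCHI, which acts in the early primordium, fell by 0.65 on the log2 scale from 170, 172 and 243 to 108, 126 and 116, and MAKR4, which acts as prebranch sites become primordia, fell by 0.56. GATA23, a marker of founder cell specification, was at 34, 32 and 26 with IAA and at 35, 25 and 37 with BiAux plus IAA, a log2 fold change of 0.05 ± 0.17 (SE), at a level near the lower limit for testing. SKP2B, whose promoter marks founder cells and primordia, passed the adjusted threshold (limma adjusted p = 0.027) but at a log2 fold change of -0.33 stayed within the fold limit, from 856, 860 and 894 to 673, 700 and 693. Only 1 lateral root gene was called when any 1 of the IAA libraries or BiAux plus IAA replicate 3 was left out.

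Abscisic acid genes fell in 4 of 21 measured cases and rose in none, with a list median of -0.29. All 21 log2 fold changes were negative, where the median of all genes tested was -0.01. In 14 the groups lay apart, against 24.8% of all genes tested in either direction. Genes of a list may change together, so these counts are not of independent genes. NCED3, the rate-limiting enzyme of abscisic acid synthesis under stress, went from 1705, 1669 and 1232 to 827, 830 and 929, a log2 fold change of -0.81 ± 0.11 (SE, limma adjusted p = 0.0058). RD26, a stress-induced NAC transcription factor, went from 1708, 1786 and 1450 to 1198, 944 and 1027, a log2 fold change of -0.64 ± 0.10 (SE, limma adjusted p = 0.0098). CYP707A3, which inactivates the hormone, fell by 0.54. RD29B, a classic late response gene, fell by 1.31 from 41, 39 and 126 to 15, 12 and 17, and without IAA replicate 3 its log2 fold change was -0.87. The drought and heat regulator DREB2A went from 1053, 950 and 656 to 402, 368 and 323, a log2 fold change of -1.22 ± 0.15 (SE, limma adjusted p = 0.0037), and HSFA6B, a heat shock factor linked to abscisic acid, from 250, 232 and 191 to 77, 94 and 90, with the same log2 fold change of -1.22 ± 0.13 (SE, limma adjusted p = 0.0019). Both were far apart between groups, and mock values of 202 to 264 for HSFA6B were close to those with IAA. Of 16 measured heat shock genes only HSFA7A was called, and it fell by 0.60. The number of abscisic acid genes called was 1 without IAA replicate 2, without BiAux plus IAA replicate 3 and in a fit over all 12 libraries, and 2 without IAA replicate 1.

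Sugar export and immunity held further large falls. SWEET12, a plasma membrane sucrose exporter, stood at 3377, 3287 and 2781 with IAA and at 1312, 1333 and 1103 with BiAux plus IAA, a log2 fold change of -1.32 ± 0.09 (SE, limma adjusted p = 0.00015). SWEET11, its partner in phloem loading, went from 3301, 3303 and 2626 to 1891, 1727 and 1461, a log2 fold change of -0.86 ± 0.11 (SE, limma adjusted p = 0.0038). The 15 other measured sugar transport genes were not called. FMO1, which makes the immune signal N-hydroxypipecolate, fell by 1.71 on the log2 scale, but its IAA values of 116, 118 and 474 were uneven against 36, 48 and 57, and without IAA replicate 3 its log2 fold change was -1.09. ALD1, which acts before FMO1, fell by 0.87, and SARD1 at -1.33 and WRKY70 at -0.58 were lower at the unadjusted threshold only. Of 15 measured genes of pipecolate and salicylate immunity, FMO1 and ALD1 were the only called ones, none was called without IAA replicate 2, without BiAux plus IAA replicate 3 or in a fit over all 12 libraries, and 1 was without any other library. Other large falls were those of MLO3 (-1.18), SEN1 (-1.18), a gene induced by darkness and senescence, the glycine-rich protein gene GRP-3 (-1.14), the polyol carrier gene PMT6 (-1.13), SNG1 (-1.07), which makes sinapoylmalate, the berberine-bridge family gene AT1G30730 (-1.06) and AT4G15990 (-1.32), which is uncharacterized. SEN1 stood at 903, 926 and 762 with IAA and at 401, 411 and 309 with BiAux plus IAA.

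The largest fall belonged to a ribosomal protein gene. AT1G36240, which encodes a member of the L30e family of the large subunit, went from 1748, 1709 and 2076 to 388, 221 and 279, a log2 fold change of -2.60 ± 0.16 (SE, limma adjusted p = 4.9e-05). It was also at 250, 338 and 317 with BiAux alone against 2205, 2597 and 2348 with mock. Its paralogues were far more abundant in these libraries and were not called, with AT1G77940 at 10390, 10325 and 13605 against 14724, 12467 and 13224, and AT3G18740 at 4924, 4952 and 6251 against 6737, 5752 and 6507. The paralogues are similar in sequence, so the division of reads among them depends on the alignment.

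Among other called rises were genes of the cell wall and of carbon and ion transport. The expansin gene EXPB3, whose product loosens walls, went from 2334, 2214 and 1682 to 4106, 7346 and 4917, a log2 fold change of 1.36 ± 0.18 (SE, limma adjusted p = 0.0049). The wall-remodelling gene XTH31 rose by 1.03 from 2826, 2850 and 1992 to 4377, 6152 and 5098, and EXPA15 rose by 0.89. These wall genes were chosen after their values were seen. The germin-like gene GLP9 went from 149, 175 and 231 to 722, 537 and 402, a log2 fold change of 1.48 ± 0.20 (SE, limma adjusted p = 0.0045). The alpha carbonic anhydrase gene ACA1 went from 65, 57 and 32 to 224, 484 and 253, a log2 fold change of 2.27 ± 0.26 (SE, limma adjusted p = 0.0026), and the uncharacterized genes AT5G20790 and AT1G75945 rose by 1.62 and 1.53. ALMT1, the malate channel that roots use against aluminium and in low-phosphate growth arrest, went from 1479, 1556 and 1605 to 2752, 3080 and 3060, a log2 fold change of 0.93 ± 0.07 (SE, limma adjusted p = 0.00018). It was also chosen after its values were seen.

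The remaining lists held few called genes or none. Jasmonate genes split, with AOC2 (0.54) and VSP1 (0.97) rising and JAZ6 (-0.55) and CYP94B3 (-0.58), which inactivates the active hormone conjugate, falling among 21 measured. Of 20 cytokinin genes, CYP735A2, which makes trans-zeatin, was the only called one and rose by 0.83 ± 0.12 on the log2 scale (SE, limma adjusted p = 0.0063), from 809, 759 and 749 to 1227, 1740 and 1244. In the mitochondrial dysfunction list DTX1 (-0.94) and UGT74E2 (-0.63) fell among 17 measured, all 17 log2 fold changes being negative with a median of -0.27. The mean log2 level of that list overlapped between the groups, at -0.22, -0.18 and 0.40 with IAA and -0.74, -0.08 and -0.24 with BiAux plus IAA, and its median was -0.14 without IAA replicate 3, -0.16 without BiAux plus IAA replicate 1, -0.42 without IAA replicate 1 and -0.47 without BiAux plus IAA replicate 2. The nitrate-responsive gene BT2 fell by 0.67, the Casparian strip gene CASP5 by 0.65, PDC1 by 0.56 and AT3G10020 by 0.71 in the hypoxia list, the cold- and clock-regulated AT4G33980 by 0.57, and the flavonoid entry enzyme gene CHS rose by 0.63. CHS and CASP5 were called in only 1 of the 6 fits that left out a library, the one without BiAux plus IAA replicate 1, and neither was called in a fit over all 12 libraries. BT2, AT4G33980 and AT3G10020 were not called without IAA replicate 1, IAA replicate 2 or BiAux plus IAA replicate 3, nor was AT4G33980 without BiAux plus IAA replicate 1. The 12 evening and 11 morning clock genes included no called member at either threshold (limma), with medians of -0.26 and -0.16, and 11 of the 12 evening genes were below 0. No member was called among 22 iron, 20 root hair, 20 aquaporin, 24 mitotic cell cycle, 19 gibberellin and brassinosteroid, 16 suberin, 13 ethylene, 13 ER body, 11 stem cell and root cap, 8 strigolactone or 17 photosynthesis genes, whose list medians lay between -0.21 and 0.08. At the unadjusted threshold MYB10 of the iron list and CYCD3;1 of the cell cycle list were higher and CDEF1 of the suberin list was lower (limma), and no other member of these lists was. Without BiAux plus IAA replicate 2, 3 evening clock genes fell. No jasmonate gene was called as a rise without IAA replicate 1, IAA replicate 2 or BiAux plus IAA replicate 3, and in those fits 1, 0 and 1 jasmonate genes were called as falls. Of 38 lists, 17 held no called gene, and 299 of the 365 called genes belonged to no list.

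**Figure D4:**
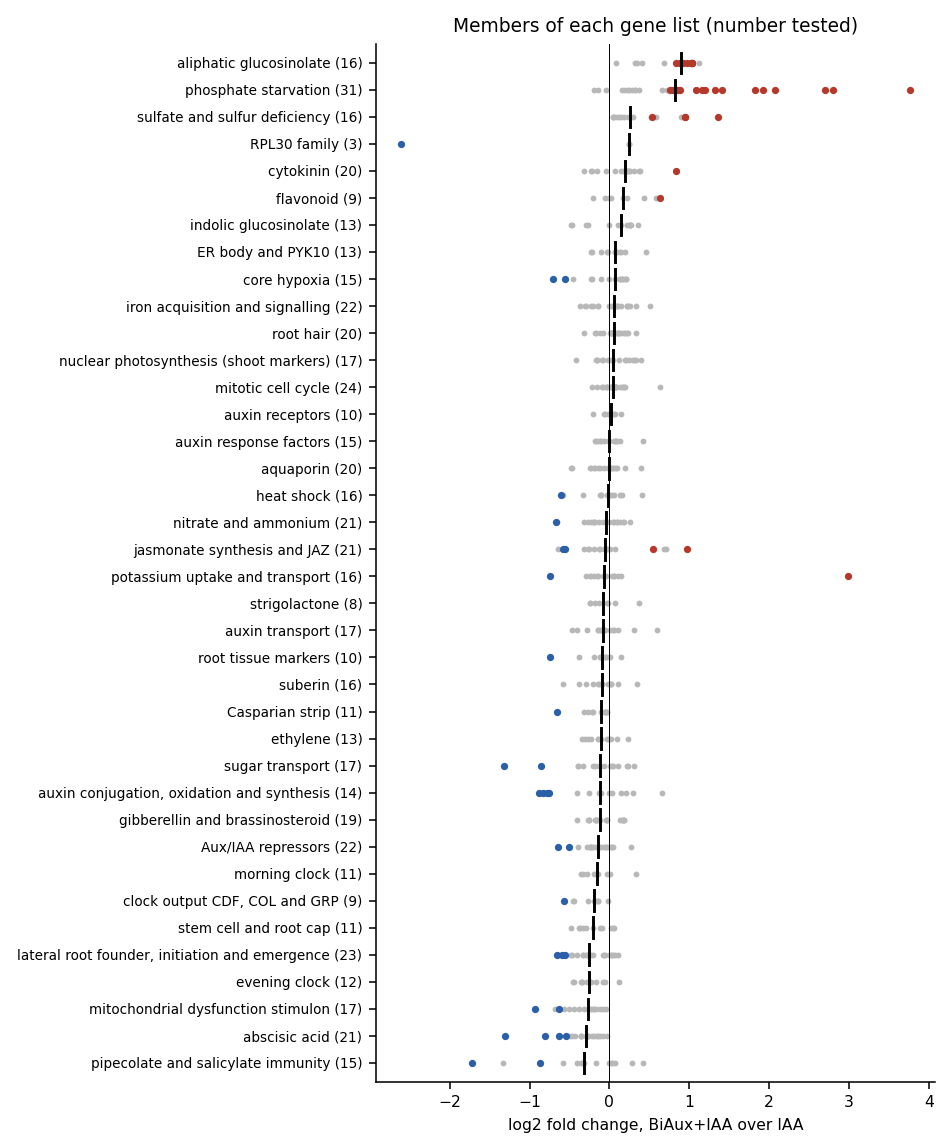
Each row is a gene list with the number of its members tested, and each point is the log2 fold change of a member, red for called rises, blue for called falls and grey for genes not called, with a black bar at the list median. The aliphatic glucosinolate and phosphate starvation lists have medians of 0.90 and 0.82, and the other lists of more than 3 genes lie between -0.31 and 0.26.

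The addition of BiAux to mock-treated roots, measured in the other 6 libraries, gave most of these genes a log2 fold change of the same sign. These libraries share none with the comparison above. Of the 158 called rises, 135 had a positive log2 fold change for BiAux against mock, or 85.4%, and of the 207 called falls, 187 had a negative value there, or 90.3%. Over all genes tested the signs matched in 52.6%. The median log2 fold change of the called rises was 0.83 with IAA and 0.36 without, and that of the called falls was -0.69 and -0.27. Since the genes were chosen by their values with IAA, the choice alone can make medians smaller in the other libraries. How much of the difference it makes up was not tested. Mock and BiAux libraries of the same number were taken as paired, because their deviations from the group means correlated at 0.78, 0.41 and 0.58. This pairing was drawn from the same values that the blocked fit then tested, and the labels give no more than the shared number. Correlations between differently numbered libraries were computed for IAA and BiAux plus IAA but not for mock and BiAux. With that block 80 genes were higher and 191 lower in BiAux than in mock (limma, adjusted p, 0.414% and 0.988% of genes tested). Of these 271 genes, 47 rises and 38 falls were also called with IAA in the same direction, 31.4% of the 271 and 23.3% of the 365, and none was called in the opposite one. Without the block only 6 genes were called, all of them also called with IAA in the same direction, and at the unadjusted threshold 98 were higher and 209 lower (0.507% and 1.08%). Leaving out a mock or BiAux library in turn kept the number of the 365 genes with matching signs between 300 and 332.

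AT5G24240 was 1 of the 6 genes called without the block. It encodes a phosphatidylinositol kinase of the gamma-like type and was at 1311, 1290 and 1317 with IAA and at 2865, 2989 and 3149 with BiAux plus IAA, a log2 fold change of 1.19 ± 0.06 (SE, limma adjusted p = 2e-05). Without IAA it went from 1315, 1084 and 1123 to 3372, 3014 and 2987. AT1G75945 went from 86, 100 and 135 to 345, 392 and 275 with IAA and from 102, 110 and 100 to 283, 307 and 317 without. AT2G01422, annotated as a non-coding RNA, was near the lower limit at 1, 4 and 9 with IAA and at 79, 78 and 56 with BiAux plus IAA, and at 7, 5 and 4 against 70, 127 and 85 without IAA. AT5G26270 rose by 0.92 and the lipase gene PLA2A fell by 0.79 with IAA, and AT1G36240 completes the set. In these genes every BiAux-treated library lay apart from every library without BiAux, whether or not IAA was given. The 6 genes were chosen for being called in both comparisons, and that choice largely fixes this separation.

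With the block the phosphate genes were also shared, and no glucosinolate or sulfur gene of the lists was called without IAA. In the blocked comparison of BiAux with mock, 19 phosphate list members rose, 17 of which were called here as well. Without the block no phosphate list member was called (limma), and 19 were higher at the unadjusted threshold. The list median was 0.59 without IAA against 0.82 with it. BiAux replicate 1 was the highest of its group in PEPC1, at 1584 against 361 and 343, much as replicate 2 was among the BiAux plus IAA libraries. No aliphatic glucosinolate gene and no sulfur gene was called in that blocked comparison (limma), against 0 and 1 at the unadjusted threshold without the block. The aliphatic list median was 0.32 without IAA against 0.90 with it. For the sulfur list the medians were -0.01 and 0.26, and for the abscisic acid list 0.01 and -0.29. A difference between the effects with and without IAA was tested as an interaction over all 12 libraries, and no gene passed the adjusted threshold (limma, smallest adjusted p = 0.13), although 1535 genes, or 7.94%, had an unadjusted p under 0.05. The smallest adjusted p belonged to PHT2;1, a phosphate transporter of the plastid, which was at 239, 255 and 206 with IAA, 404, 430 and 452 with BiAux plus IAA, 361, 348 and 343 with BiAux and 366, 386 and 393 with mock. Its log2 fold change was 0.84 with IAA and -0.12 without, an interaction of 0.95 ± 0.13 (SE). The effects of BiAux with and without IAA were therefore not shown to differ for any gene.

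**Figure D5:**
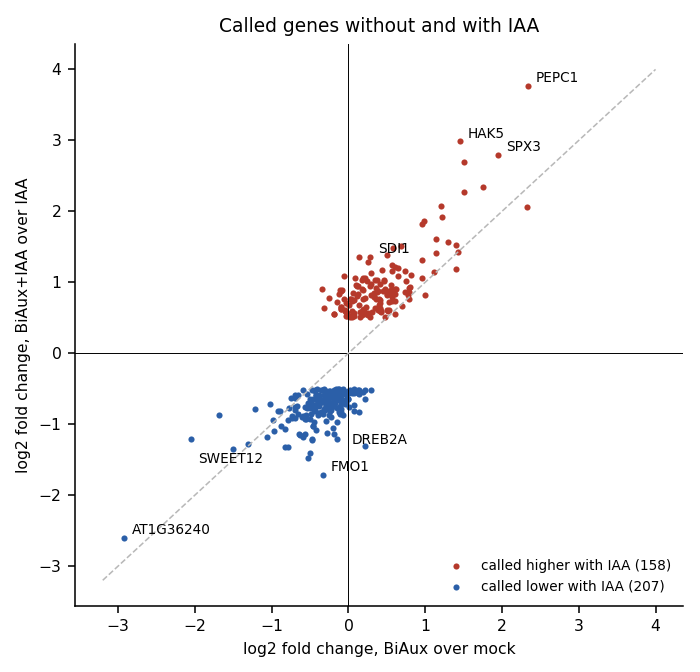
For the 365 called genes, the log2 fold change of BiAux plus IAA over IAA is plotted against that of BiAux over mock, with rises in red, falls in blue and a dashed line where both are equal. Of the 365 points, 322 have the same sign on both axes, and AT1G36240 lies near the line at -2.60 and -2.92.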

How the data were processed

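Poly(A) RNA from roots was sequenced by the authors, 3 libraries per treatment. Per the study's methods, reads were aligned to TAIR10 with STAR and counted with HTSeq on Araport11 genes, and normalized with edgeR, whereas the submitters' processing notes name HISAT2. The authors deposited log2 values (log2 of normalized count plus 1) for 20814 genes in 12 libraries. Below 8, 100% of them correspond to whole normalized counts. These are scaled values and not reads, so tests for counts were not used. No gene of the table is under 3 in IAA replicate 3, so genes close to 0 in that library are not analysed here. The study's methods also name tir1-1 seedlings, but the 12 libraries of the deposited values are all titled wild type.

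Normalized counts were recovered from the log2 values, and genes averaging 0.5 CPM or more across the 12 libraries were tested. Counts plus 16.3, which equals 0.5 CPM, were log2-transformed and fitted with limma 3.58.1 in R 4.3.3, with a trended prior and Benjamini-Hochberg adjustment over all 19338 genes, on the 6 libraries compared. Called genes had an adjusted p under 0.05 and a log2 fold change beyond 0.5 in size. The test was checked on simulated counts with the same fixed spread in every library and changed genes averaging 5 CPM or more. There it called 100% of the genes changed by a log2 fold of 1 or 2, and 3 unchanged genes. No simulated library deviated as BiAux plus IAA replicate 2 did, so the check does not cover that case. Named genes were the 12 largest rises and 12 largest falls averaging 5 CPM or more with no overlap of the groups, the called members of each of 38 gene lists (up to 3 by smallest p where few or none were called), and the genes the study names. Genes outside that rule are said to be chosen after their values were seen, or were named after their values were seen to complete a small count or a contrast. The genes, lists and tests were chosen with earlier results of these data known. Of 20814 genes, 20694 have a RefSeq record, used for names, and upstream sequence was read from the TAIR10.1 genome. IAA replicates 1 and 2 agreed closely and were counted separately. If normalized counts are taken as reads, their squared differences averaged 4.02 times the counting variance per gene. Deviations from the group means correlated between same-numbered libraries at 0.78, 0.41 and 0.58 for mock and BiAux, which were taken as paired, and not in every pair for IAA and BiAux plus IAA, which were not. Alternatives were other pseudocounts, filters, scaling factors and libraries left out.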

Additional observations from a re-analysis of the deposited data

How the results depend on the processing

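For the number of rises and falls, the looser rule with an unadjusted p gave 292 and 365, and an adjusted p with no fold limit gave 238 and 503. Fitting all 12 libraries together gave 79 and 116. Leaving out each library in turn gave 53 to 222 rises and 74 to 254 falls, with the lowest counts without IAA replicate 2. Filters, pseudocounts, median-of-ratios factors and the values as deposited gave 110 to 166 rises and 155 to 220 falls. Replicate numbers did not pair IAA with BiAux plus IAA: same-numbered deviations correlated at 0.05, -0.13 and 0.17, not every library correlated best with its own number, and a replicate block gave 228 rises and 265 falls. The interaction count was 0 in limma with the block, a smaller pseudocount and a stricter filter, with 1291 to 1614 genes at an unadjusted p under 0.05. No named gene with an adjusted p under 0.05 changed sign under these alternatives: of the named genes' values, 1094 kept their side of that threshold and 201 lost it, most often without BiAux plus IAA replicate 3 (44), without IAA replicate 2 (41), in the fit of all 12 libraries (36) and without IAA replicate 1 (34). Every scaling kept the median of all genes within 0.03 of 0. The depth of each library is unknown, so no counting error can be given for low genes.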
